A study of Arabidopsis thaliana with 6 samples.

Results

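The 10 genes described here encode class III peroxidases of Arabidopsis thaliana, and each had 1 probe set on the arrays: AT3G01190, AT4G26010, AT3G49960, AT5G15180, AT5G17820, AT1G30870, AT4G30170, AT5G64100, AT5G66390 and AT3G21770. They were chosen by locus from a list drawn up with the intensities of these same 6 arrays known, so their levels, their spread over arrays and their covariation are given as a description and not as a finding. They are 10 of 73 class III peroxidase loci listed, and 10 of 13286 genes with a one-gene probe set. Affymetrix arrays were used to measure transcripts of entire Col-0 seedlings 15 days old, with 3 arrays of wild type and 3 of the gapcp1gapcp2 double mutant. Both genes named in that genotype code for the plastid form of a glycolytic dehydrogenase acting on glyceraldehyde-3-phosphate, and the labels name no alleles. The tissue is taken from the source and tissue labels, since the free-text descriptions of all 6 samples speak of embryos, which goes against those labels and the growth protocol. All 6 samples had been treated with 0.75 µM abscisic acid (ABA), a stress hormone, for 8 days, so no untreated seedlings were compared. GAPCP1 and GAPCP2 have no named probe set in the table used here, so the targeted genes did not check the genotype labels.

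Class III peroxidases are secreted heme enzymes of plants that act mainly in the cell wall and the vacuole. With hydrogen peroxide they oxidise phenolic compounds, which joins monolignols into lignin and cross-links wall proteins such as extensins and stiffens the wall, and they can also form reactive oxygen species that loosen it. Many members of this large family are transcribed mainly in roots, where the enzymes are known for work in root hair walls and in the lignified Casparian strip of the endodermis. The seedlings were not dissected, so these data cannot show in which organ the 10 genes were transcribed, and in whole seedlings fewer root cells and less RNA per root cell cannot be told apart. Of the 10 loci only AT5G66390 carries a protein name in the gene table, PRX72, and the others are therefore called by locus.

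In each of the 10 genes the mean intensities of the genotypes lay close together. The levels among the arrays of each genotype were very unequal. On all 10 probe sets the signal was highest on wild type 1 and mutant 2, intermediate on wild type 3 and mutant 3, and lowest on wild type 2 and mutant 1. The highest array was wild type 1 for 6 genes and mutant 2 for 4, and the lowest was mutant 1 for 7 genes and wild type 2 for 3. Over all 6 arrays the highest intensity was between 1.54 and 5.65 times the lowest, with a median ratio of 2.78.

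PRX72 (AT5G66390) is a peroxidase known for its part in lignin formation. Its intensity was 344, 184 and 265 on wild type 1, 2 and 3 and 157, 339 and 243 on mutant 1, 2 and 3. The ranges of the genotypes overlapped over most of their length, and wild type 1 and mutant 2 were nearly equal at the top. The means were 264 ± 80.0 for wild type and 246 ± 91.1 for mutant arrays (SD, n = 3), a log2 difference, mutant minus wild type, of -0.12 ± 0.28 (SE).

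In 5 genes the highest array was between 2.76 and 4.12 times the lowest. AT5G15180 had an intensity of 405, 98.3 and 269.7 on wild type 1, 2 and 3 and 100.3, 351 and 246 on mutant 1, 2 and 3. Wild type 1 was thus 4.12 times wild type 2, the widest ratio among wild type arrays for any of the 10 genes. AT4G26010 had 395, 128 and 275 in wild type and 109.6, 416 and 280.0 in the mutant, in the same replicate order. Here mutant 2 was the highest array and mutant 1 the lowest, with a ratio of 3.80. AT3G01190 had 998, 308 and 682 in wild type and 307, 869.7 and 595 in the mutant. The lowest arrays of the 2 genotypes, wild type 2 and mutant 1, differed for this gene by less than 1 unit of intensity. AT5G17820 had 706, 258 and 499 in wild type and 291, 720.5 and 495 in the mutant, and AT1G30870 had 320.4, 137 and 261 in wild type and 155, 378 and 242 in the mutant. Both had mutant 2 on top and wild type 2 at the bottom.

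The genotype means of these genes lay well within the spread of their arrays. For AT5G15180 they were 258 ± 154 for wild type and 233 ± 126 for mutant arrays (SD, n = 3), and for AT3G01190 663 ± 345 and 591 ± 281 (SD, n = 3). AT4G26010 had 266 ± 134 and 269 ± 154, AT5G17820 487 ± 224 and 502 ± 215, and AT1G30870 239 ± 93.5 and 258 ± 112 (SD, n = 3). The log2 differences, with their SE, were -0.098 ± 0.51 for AT5G15180, -0.13 ± 0.44 for AT3G01190, -0.033 ± 0.48 for AT4G26010, 0.061 ± 0.38 for AT5G17820 and 0.094 ± 0.34 for AT1G30870. Each difference was smaller than its SE.

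The next 3 genes had narrower ranges with the arrays in the same places. AT5G64100 had an intensity of 711, 347 and 485 on wild type 1, 2 and 3 and 345, 733 and 488 on mutant 1, 2 and 3. AT4G30170 had 1405, 793 and 913 in wild type and 705, 1342 and 1024 in the mutant. AT3G21770 had 798, 519 and 631 in wild type and 517, 722 and 614 in the mutant, with the smallest ratio of highest to lowest array among the 10 genes (1.54). In all 3 genes the mutant arrays and the wild type arrays overlapped over most of their range. Means were 514 ± 184 and 522 ± 196 for AT5G64100, 1037 ± 324 and 1024 ± 319 for AT4G30170, and 649 ± 140.5 and 618 ± 102 for AT3G21770 (wild type and mutant, SD, n = 3). The log2 differences were 0.015 ± 0.30, -0.023 ± 0.26 and -0.061 ± 0.17 (SE), again each below its SE.

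AT3G49960 gave the dimmest values, with 99.8, 28.2 and 43.8 on wild type 1, 2 and 3 and 17.7, 94.4 and 84.3 on mutant 1, 2 and 3. All 6 values were below the median of their array, which lay between 105.8 and 113.0. Its ratio of highest to lowest array, 5.65, was the widest of the 10 genes and rests on the value of 17.7 in mutant 1; without that array the ratio was 3.54. Its means were 57.2 ± 37.6 for wild type and 65.5 ± 41.7 for mutant arrays (SD, n = 3), with a log2 difference of 0.095 ± 0.49 (SE).

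**Figure D1:**
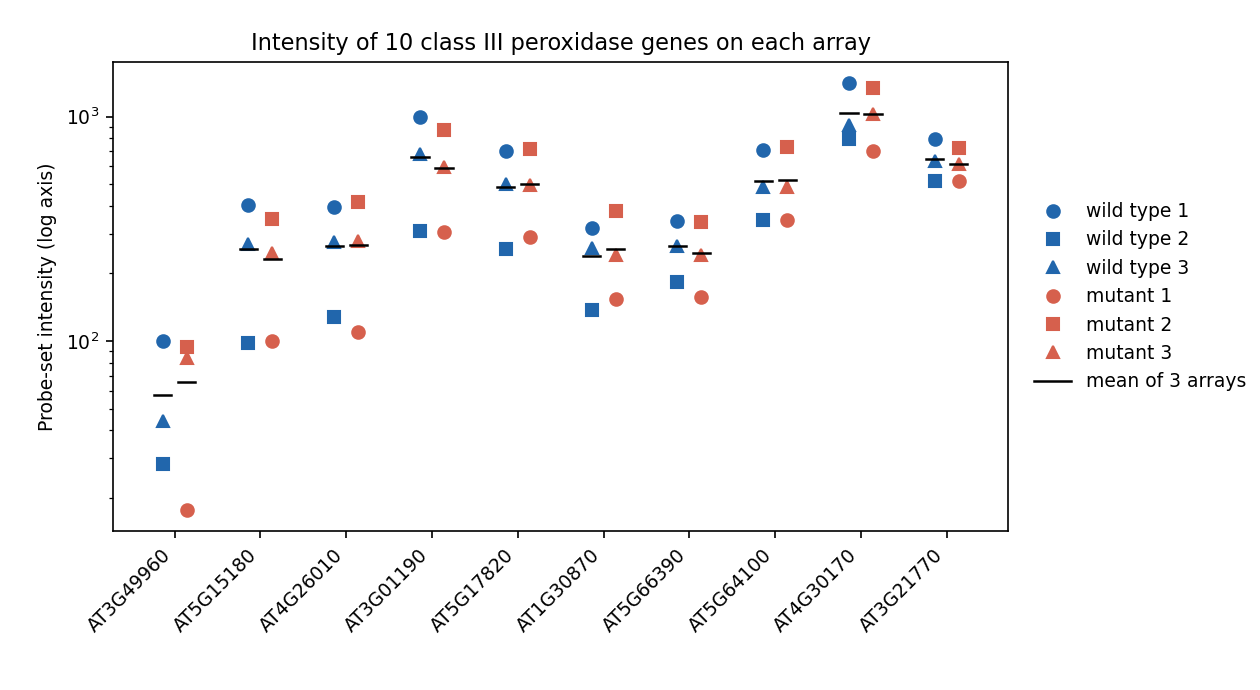
Probe-set intensity (log axis) of the 10 class III peroxidase genes on each of the 6 arrays, blue for wild type and red for the gapcp1gapcp2 mutant, with the marker shape giving the replicate number and a black bar the mean of 3 arrays. The genes run from the widest ratio of highest to lowest array (AT3G49960, 5.65) to the narrowest (AT3G21770, 1.54), and in each the blue circle and red square are on top and the blue square and red circle at the bottom.

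None of the 10 genes passed the comparison of genotypes, in which both sides had received ABA. The test was limma on log2(intensity + 16), two-sided, fitted over the 15922 probe sets left after the lowest 30% by mean had been removed, all 10 genes among them. At a threshold of 0.05 on the adjusted p, limma called 0 of the 10 genes, against a background of 0.00% of all probe sets for calls upward in the mutant and 0.00% for calls downward. Each of the 10 had a limma adjusted p of 1.00. With p under 0.05 before adjustment the count was again 0 of 10, against 1.70% of all probe sets (271), and the smallest limma p of the 10 was 0.688, for PRX72. In 0 of the 10 genes were the ranges of the genotypes separate, which held for 6.29% of all probe sets. Of the 10 genes 4 were fitted above 0 and 6 below, with a median log2 difference of -0.028 beside -0.0032 over all probe sets tested.

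The size of difference that these arrays allow varied with the gene. The 95% interval of the log2 difference ran from -0.45 to 0.33 for AT3G21770 and from -0.75 to 0.52 for PRX72. For 6 genes it lay within -1 to 1, so that a 2-fold difference in either direction was outside it. For AT5G15180 (-1.26 to 1.07), AT4G26010 (-1.12 to 1.05), AT3G49960 (-1.02 to 1.21) and AT3G01190 (-1.14 to 0.88) a 2-fold difference in at least one direction was inside the interval. The share of a gene's variance over arrays that lay between the genotypes was between 0.030% and 2.17%, with a median of 0.46%.

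The direction of the difference followed whichever array was left out. Without wild type 1 all 10 genes were fitted higher in the mutant (0.085 to 0.49), and likewise without mutant 1 (0.057 to 0.64). Without wild type 2 all 10 were fitted lower (-0.63 to -0.19), and likewise without mutant 2 (-0.46 to -0.18). With differences near 0 over all arrays, these shared signs restate the order of arrays that the genes were listed with. They are no separate result. Leaving out wild type 3 or mutant 3 left 6 and 3 of the 10 above 0. No gene reached an unadjusted limma p under 0.05 in any of these fits, and the smallest was 0.108.

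**Figure D2:**
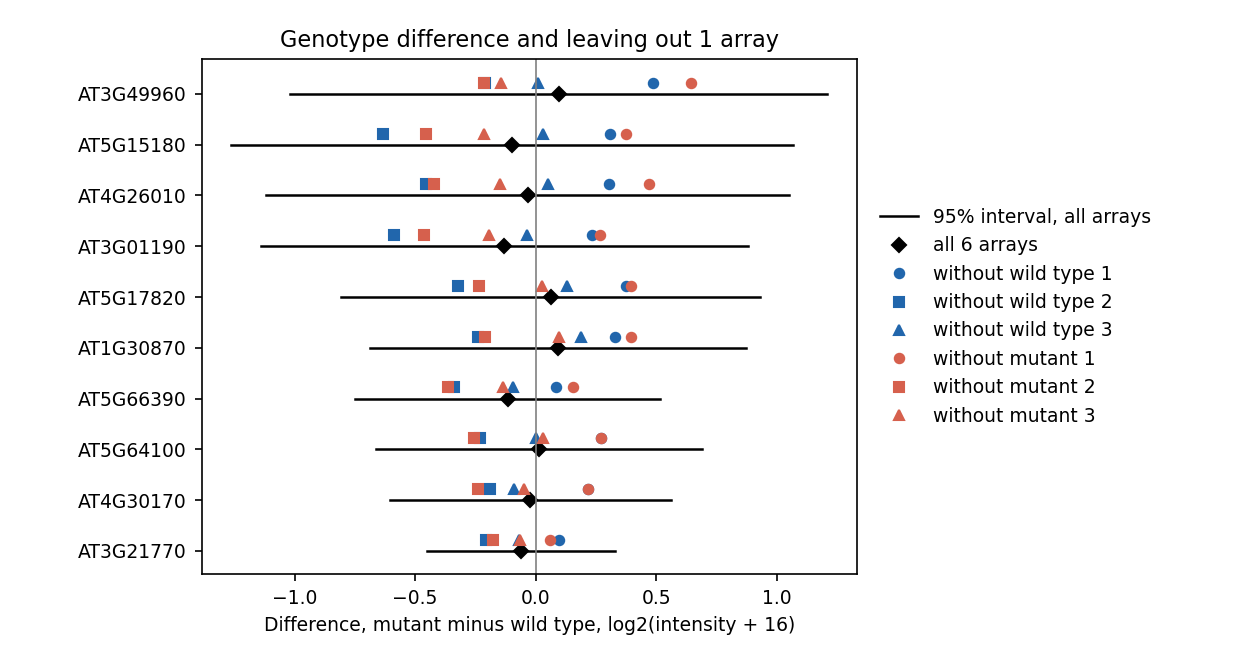
Log2 difference (mutant minus wild type) of the 10 genes with its 95% interval over all 6 arrays (black), and above each the difference with 1 array left out, the colour and shape naming the array removed. Circles (without wild type 1 or mutant 1) lie above 0 and squares (without wild type 2 or mutant 2) below 0 for every gene.

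The spread among arrays of one genotype was large for these genes beside other transcripts. The within-genotype SD of log2(intensity + 16) was 0.27 for AT3G21770, 0.44 to 0.60 for AT4G30170, PRX72, AT5G64100 and AT1G30870, and 0.67 to 0.91 for the remaining 5, where the median over all tested probe sets was 0.16. In rank this placed AT3G21770 at percentile 81.4 of all tested probe sets and AT5G15180 at 99.7, with a median percentile of 98.7 over the 10 genes. These spreads belong to the values the genes were listed with, and no test was made of them.

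The 10 genes varied together. Over the 45 pairs of genes Pearson's r of log2(intensity + 16) across the 6 arrays had a median of 0.96 and ran from 0.88 to 1.00, and Spearman's rho had a median of 0.89 and ran from 0.83 to 1.00. Each gene followed the mean of the other 9 with an r between 0.93, for AT3G49960, and 0.99. When mutant 1 and wild type 2, the arrays farthest from the median, were left out, the median r over the 45 pairs was 0.92 on the remaining 4 arrays and the lowest 0.53. Probe sets on one array share its RNA extract, labelling and scaling, so the coefficients are a description of these 6 arrays, and no p-value is attached.

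The same order of arrays was seen on many other probe sets. All 10 genes had wild type 1 and mutant 2 above wild type 3 and mutant 3, and those above wild type 2 and mutant 1, an order seen on 5.90% of all tested probe sets. The looser rule, the highest value on wild type 1 or mutant 2 and the lowest on wild type 2 or mutant 1, held for 19.0% of all tested probe sets, and its mirror image for 19.8%. Both rules were written after the values had been seen, so nothing is read from the 10 of 10 genes.

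The rest of the family divided between genes that ran with the 10 and genes that did not. Of the other 63 class III peroxidase loci, 45 had a one-gene probe set and 29 of these were above the filter on low values, while 16 were below it. Limma called 0 of the 29, of which 16 were fitted above 0 and 13 below, with a median log2 difference of 0.0039. Of the 29, 15 had their highest value on wild type 1 or mutant 2 and their lowest on wild type 2 or mutant 1, 4 had the reverse and 10 neither. Over all tested probe sets 19.0% had the first arrangement and 19.8% the reverse, and this rule was written after the values had been seen. Pearson's r with the mean profile of the 10 genes was above 0.9 for 8 of the 29 and below -0.9 for 3, where 5.20% and 4.71% of the other tested probe sets had such values.

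Of the 6 brightest genes of the remaining family, named for their mean intensity, 3 ran with the 10. AT4G36430 had 414, 249 and 307 on wild type 1, 2 and 3 and 227, 396 and 315 on mutant 1, 2 and 3 (r = 0.99 over 6 arrays). AT2G37130 had 1016, 532 and 913 in wild type and 564, 1165 and 700.5 in the mutant (r = 0.94), and AT2G18980 ran from 354 on mutant 1 to 512 on wild type 1 (r = 0.82). The other 3 had flatter values. PRXR1 (AT4G21960), one of the family's bright probe sets, stayed between 6555 and 7375 on all 6 arrays, a ratio of 1.13. AT1G71695 lay between 1069.9 and 1459, with its lowest value on wild type 3. AT3G28200 ran the other way over a narrow range, with 629.6, 727 and 643 in wild type and 739.9, 605 and 678 in the mutant (r = -0.96).

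Outside that rule, and chosen after their values were seen, AT5G64110 and PRX71 (AT5G64120) follow AT5G64100 in the RefSeq order of protein-coding genes, 1 and 2 genes away, in a row of 3 class III peroxidase genes. PRX71 had 324, 167 and 238 on wild type 1, 2 and 3 and 188, 277 and 253 on mutant 1, 2 and 3, the arrays standing much as in AT5G64100 (r = 0.96 with the mean profile of the 10). AT5G64110, between them, was below the filter on the mean, at 32.1 to 43.5, with its highest value on wild type 3. By their locus names 1 of the 10 genes lies on chromosome 1, 3 on chromosome 3, 2 on chromosome 4 and 4 on chromosome 5, and 0 on chromosome 2, where 9 of the other 45 genes lie.

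**Figure D3:**
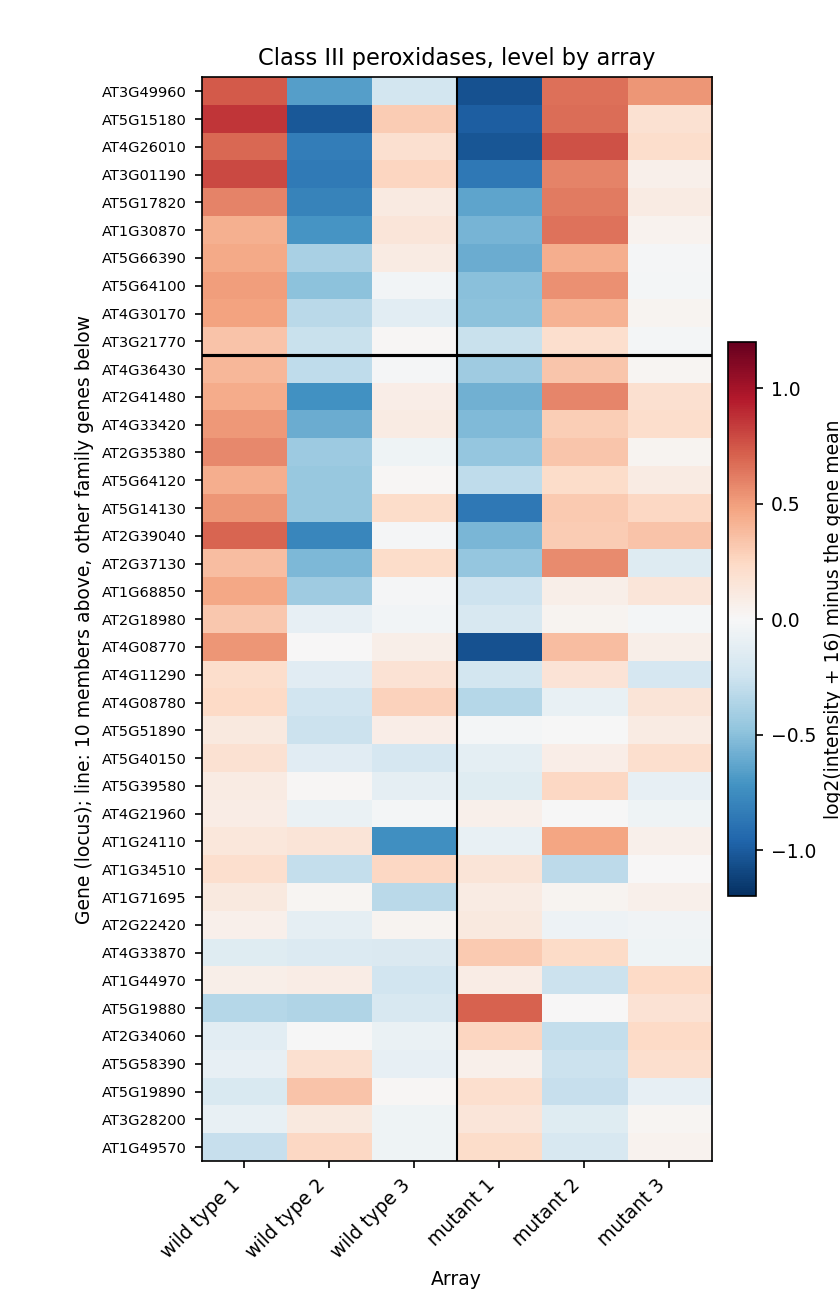
Level of each class III peroxidase gene by array, as log2(intensity + 16) minus the gene's mean over 6 arrays (colour), with the 10 genes above the horizontal line and the 29 other family genes above the filter below it, sorted by their r with the 10. The 10 genes are red on wild type 1 and mutant 2 and blue on wild type 2 and mutant 1. The family genes pass from that pattern through rows of low r, some flat and some varying in another order, to its reverse. The reverse is seen in AT3G28200, over a narrow range, and, chosen after their values were seen, in AT5G19890 and AT1G49570.

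Measured genes of the root lists mostly, but not all, stood in the same order of arrays. Of 12 listed root markers 3 had a one-gene probe set. All 3 had their highest value on wild type 1 or mutant 2 and their lowest on wild type 2 or mutant 1. That arrangement held for 19.0% of all tested probe sets, and the lists were chosen with earlier results of these data known. PYK10, a beta-glucosidase gene of root ER bodies, had 6109, 4383 and 4649 on wild type 1, 2 and 3 and 4073, 5514 and 4889.6 on mutant 1, 2 and 3. NAI2, a gene for ER body formation, had 1161, 919.9 and 995 in wild type and 827, 1278 and 1102 in the mutant. The ratio of highest to lowest array was 1.5 for PYK10 and 1.55 for NAI2, close to the 1.54 of AT3G21770 and below that of the other 9 peroxidases. For AT5G62340, the remaining measured root marker, it was 2.76, near the median of the 10 (2.78). PYK10 made up most of the summed intensity of the 3 markers. That sum was 5400.4 to 7512 in wild type and 4989 to 7038 in the mutant. Of the 3 markers 0 was at or below 0 on any array. The root hair expansin genes EXPA7 and EXPA18, which act in wall loosening of growing root hairs, had r of 0.86 and 0.91 with the 10 genes and were 2 of the 3 measured of 16 listed root hair genes. EXPA18 had 177, 89.1 and 159.7 in wild type and 66.1, 256 and 109 in the mutant. EXPA7 had 44.45 on wild type 3, below its 47.25 on wild type 2. The remaining measured root hair gene, AT5G61550, was below the filter and highest on wild type 3. GSO1, the measured gene of the Casparian strip and suberin list, was lowest on mutant 2 (r = 0.47 with the 10).

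Green tissue markers varied little over the arrays. Of 12 listed, 4 had a one-gene probe set, and their summed intensity was 24809.6 to 27059 in wild type and 25075 to 26917 in the mutant. The antenna gene LHCB4.1 was between 8469 and 9736, and PSAE-1, of photosystem I, between 7773 and 8893. Their r with the 10 genes was 0.25 and 0.28, while the other 2, SBPASE and AT1G32470, each had an r of -0.80, so the mean of the 4 joins genes that ran both ways. The mean of the 4 on the log2 scale stayed within -0.068 and 0.066 of its average on every array, where the mean of the 10 peroxidases ran from -0.70 on mutant 1 to 0.59 on wild type 1. The part that the amount of root material had in the levels of the peroxidases was not tested. Iron deficiency genes had the highest and lowest arrays reversed on 3 of 4 measured probe sets, where 19.8% of all tested probe sets did. BHLH101, a regulator of iron uptake responses, had 119.9, 778 and 400.0 in wild type and 723, 116 and 315 in the mutant (r = -0.97 with the 10).

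Extensin genes, whose products are known substrates of wall peroxidases, did not share the order. Of 18 listed 8 had a one-gene probe set and 6 were tested, with 0 called by limma. All 6 were fitted above 0, with log2 differences of 0.39 to 1.16 (SE 0.30 to 0.62) and a median of 0.50. Of the 6, 0 had an unadjusted limma p under 0.05. All 6 had their highest value on mutant 3 and 5 had their lowest on wild type 2. Their r with the mean profile of the 10 peroxidases was 0.34 to 0.64. HRGP1 (AT3G54590) had 364, 86.2 and 329.5 on wild type 1, 2 and 3 and 236, 315 and 636 on mutant 1, 2 and 3. The median of the 6 was 0.23 without mutant 3, 0.31 without wild type 2 and 0.77 without mutant 1. Of these 6 probe sets 4 are of the kind that shares probes with other transcripts, so they are not independent readings, whereas 0 of the 10 peroxidase probe sets are.

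**Figure D4:**
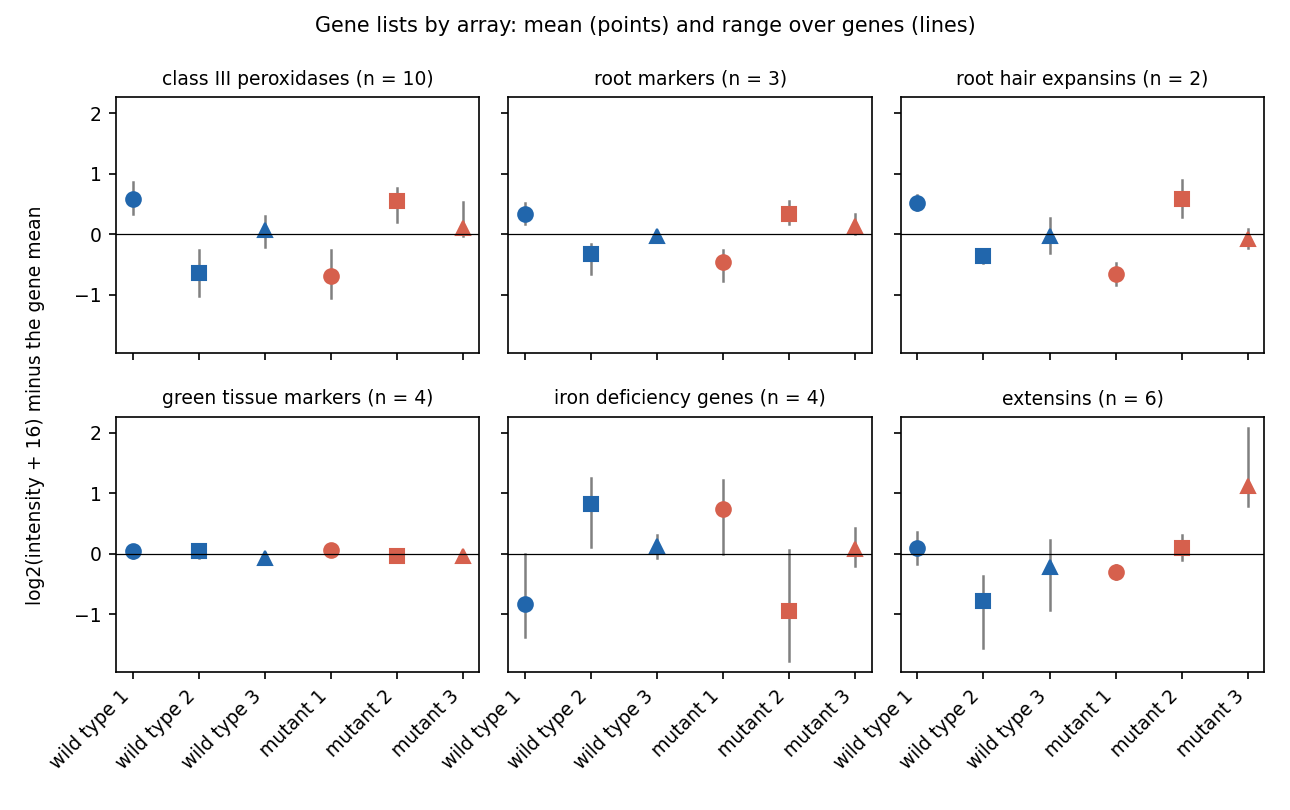
Mean (points) and range over genes (grey lines) of log2(intensity + 16) minus each gene's mean, by array, for the 10 peroxidases and 5 gene lists, blue for wild type and red for the mutant. Root markers and root hair expansins show the order of the peroxidases with a smaller or like range, iron deficiency genes the reverse, green tissue markers almost none, and extensins are high on mutant 3.

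The genes most like the 10 were sought among 8594 named genes above the filter outside the family, by Pearson's r with the mean profile of the 10 over 6 arrays. The 8 highest were AT1G62660, AT3G27210, AT1G30700, AT4G22212, AT1G12080, AT3G22570, AT2G37750 and AT4G30470, with r of 0.99 to 1.00. AT1G62660 had 1424, 484 and 909.6 on wild type 1, 2 and 3 and 487, 1291 and 950.2 on mutant 1, 2 and 3. AT2G37750 ran over a wider range, from 201 on mutant 1 to 866 on mutant 2, and AT4G30470 over a narrow one, from 247 to 269.5, so a high r does not mean a like size of variation. The r of AT4G30470 was 0.85 with median centring, 0.89 with 75th percentile centring and 0.90 with quantile normalization. The 5 lowest were AT1G75280, AT5G24210, AT1G07450, AT1G55960 and AT4G36530, with r from -0.997 to -0.992. AT1G55960 had 257, 634 and 384 in wild type and 644, 287 and 407 in the mutant, high where the peroxidases were low. Many other probe sets had high coefficients on these 6 arrays: 827 tested probe sets outside the 10 (5.20%) had an r above 0.9 and 750 (4.71%) below -0.9. The reason for these counts was not tested.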

How the data were processed

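RNA of entire seedlings was labelled with biotin per the labels' protocols, and groups and replicate numbers came from the sample titles. The deposited table holds a linear intensity for each probe set and array, 3919 of the values below 0. The submitters' processing notes name GCOS, while its version, summarisation and scaling were not found in these sources. The probe-to-gene table gave 13513 of the 22746 probe sets a single gene, 503 more than 1 and 8730 no name. A RefSeq entry (TAIR10.1) was found for 13436 of the 13513. Its coordinates are not printed because the files name no build.

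Deposited intensities below 0 were raised to 0 and all were converted to log2(value + 16), with no further normalization. Probe sets whose mean log2 value was among the lowest 30% were removed. Genotypes were compared with limma 3.58.1 (R 4.3.3; lmFit, eBayes with an intensity trend, Benjamini-Hochberg adjustment over every probe set kept). The fit had first been run on simulated data. Their noise was drawn independently for each probe set and array, so that run did not cover the shared variation over arrays described here. The number of arrays limits the precision. The protocol says that sets of plants of both genotypes grew at the same time. It ties no set to a number, so the fit had no block and the block was an alternative.

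The 10 genes, the gene lists and the array orders were chosen with earlier results of these data known. Named besides the 10 are the 6 brightest other class III peroxidases, the 2 brightest genes of each list, and the 8 genes most and 5 least like the mean profile of the 10. The remaining measured genes of the root, root hair and green tissue lists are named to complete them. Any further gene is marked as chosen after its values were seen. Lists covered the class III family, root hair, root and green tissue markers, extensins, NADPH oxidases, antioxidant enzymes, Casparian strip and suberin, monolignol synthesis and iron deficiency. Alternatives covered no filter, a 50% filter, quantile normalization, centring by median or 75th percentile, pseudocounts of 1 and 64, a generalized log2, eBayes without trend or robust, a replicate block, and dropping each array in turn. Figures were drawn with matplotlib 3.10.9.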

Additional observations from a re-analysis of the deposited data

How the results depend on the processing

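Under all 17 alternatives limma placed 0 probe sets and 0 of the 10 peroxidase genes past the threshold, and the smallest adjusted p of any probe set was 0.999. With the replicate number as a block the count was likewise 0, and 136 probe sets had an unadjusted p under 0.05 in place of 271. That number was 619 when no filter was used and 115 under the 50% filter. Over all tested probe sets, deviations from the genotype means correlated at -0.59, -0.49 and -0.13 between the arrays numbered 1, 2 and 3. For 0 of the 6 was the array of equal number the closest. The highest correlations between arrays of different genotype were 0.60, for wild type 2 with mutant 1, and 0.39, for wild type 1 with mutant 2. Whether such arrays share a growth set was not tested. The block changed no call. AT3G49960 was below the 50% filter and has no value there. With 1 array left out the sign turned in 23 of 60 values and in each of the 10 genes. The other 11 alternatives turned 0 of 109. Among them the filters, the eBayes settings and the replicate block cannot alter a fitted difference. Only the normalizations, the pseudocounts and the generalized log2 could have turned a sign. The fits on 5 arrays gave log2 differences for AT3G01190 (-0.59 to 0.27), AT4G26010 (-0.45 to 0.47), AT3G49960 (-0.21 to 0.64), AT5G15180 (-0.63 to 0.37), AT5G17820 (-0.32 to 0.39), AT1G30870 (-0.24 to 0.39), AT4G30170 (-0.24 to 0.22), AT5G64100 (-0.26 to 0.27), AT5G66390 (-0.36 to 0.15) and AT3G21770 (-0.21 to 0.095), and their median from -0.28 to 0.32. The median pairwise r of the 10 genes lay between 0.96 and 0.98 under every alternative that alters it. The r with the mean profile of the 10 turned for 2 flat family genes, PRXR1 (AT4G21960, from 0.30; -0.098 to 0.81 with 1 array left out) and AT1G71695 (from -0.022; -0.26 to 0.20, and 0.0072 with 75th percentile centring). Low signal limits AT3G49960. For the 10 genes, turns on leaving out wild type 1 or 2 or mutant 1 or 2 restate their order of arrays. The cause of that order and of the other turns was not tested.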

Other observations

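Genes that supply or remove the hydrogen peroxide used by peroxidases had few named probe sets. Of 10 listed NADPH oxidase genes, which make superoxide at the plasma membrane, 3 had a probe set and 1 was tested, AT1G19230, with intensities of 87.8, 42.6 and 64.7 on wild type 1, 2 and 3 and 56.2, 59.2 and 82.7 on mutant 1, 2 and 3. AT4G11230, also named by rule, was below the filter (13.3 to 55.5). Of 16 antioxidant enzyme genes 2 had a probe set, both for chloroplast ascorbate peroxidases. SAPX, for the stromal form, ran with the class III peroxidases (755, 413 and 663 in wild type, 469, 892 and 681 in the mutant; r = 0.96), and TAPX, for the thylakoid form, did not (1265, 1374 and 1121 in wild type, 1275, 1170.2 and 1328 in the mutant; r = -0.49).

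Limma called none of the tested genes of these lists (0 of 1 NADPH oxidase and 0 of 2 antioxidant genes, with 0 at an unadjusted p under 0.05). The same held for the 1 measured gene of monolignol synthesis, HCT (808 to 929.6 over all arrays), and the 1 of the Casparian strip and suberin list, the receptor kinase gene GSO1 (115 to 147). AT1G47400, the other iron deficiency gene named by rule, had 217, 1428 and 697 in wild type and 1386, 161 and 796 in the mutant. The extensin AT1G23720 had 82.3, 49.0 and 113.6 in wild type and 81.3, 104.7 and 176.8 in the mutant.

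Among the 29 other class III peroxidases tested, 1 had an unadjusted limma p under 0.05, against 1.70% of all tested probe sets, and 2 had separate ranges in the genotypes, against 6.29%. These 2 were chosen after their values were seen. The one with that p, AT5G19880, had 31.7, 30.9 and 36.9 in wild type and 82.4, 44.6 and 51.9 in the mutant, a log2 difference of 0.59 ± 0.23 (SE) with an adjusted p of 1.00. The other, AT4G33870, had 38.4, 37.8 and 37.4 in wild type and 59.0, 54.5 and 42.2 in the mutant, with an unadjusted limma p of 0.115. In both genes the mutant arrays were higher, at intensities below the array medians.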
